A study of Danio rerio with 49 samples.

Results

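The 150 zebrafish genes described here are those whose mean RNA level in the injured spinal cord stood highest at week 2 after transection. They were taken from a table of 40085 rows, of which 31901 carried an Ensembl gene identifier and 13892 of these averaged at least 1 FPKM over the 49 libraries. FPKM is the number of sequenced fragments scaled to gene length and to the total of the library, and all log2 values below were computed after adding 0.1. For each gene, the mean log2 level of the uninjured controls of the same region was subtracted from that of each week, and the differences of the rostral and caudal segments were averaged. A gene met the rule when its difference from control at week 2 was at least 0.6 and exceeded those at weeks 1, 4 and 6 by at least 0.3 each. This held for 173 genes, and the 150 with the largest excess of week 2 over the next highest week were taken. The members were thus chosen by their measured levels at 2 wpi, relative to control and to the other weeks. Because the comparisons of 2 wpi (weeks post injury) with control and with the other weeks chose the members, their values in those comparisons are a description and not a result. The rule averaged the regions and so did not use the difference between caudal and rostral segments. A gene could still pass through a high week 2 level in 1 region, so the regional comparison is not fully free of the choice.

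The study followed regeneration after complete transection of the spinal cord in wild-type AB zebrafish of both sexes. Bulk RNA was extracted from 5 spinal segments lying rostral to the injury site or 5 lying caudal to it, at 1, 2, 4 and 6 wpi, and from the corresponding segments of uninjured fish. This gave 10 groups of 5 libraries each, except 4 for the caudal segments at 6 wpi. No transgene, drug or deletion distinguished the groups. The fish were young adults, 6 to 8 weeks old, and each library was made from pooled samples. Segments of 3 fish were collected, either for each group, which is fewer than its libraries, or possibly for each pool. How the fish were divided among the pools was not stated. Libraries of a group may therefore share fish, and every p-value measures the spread between these libraries. This spread may be technical in whole or in part. Within a week, rostral and caudal libraries with the same replicate number deviated together from their group means (mean correlation 0.62). What this shared deviation reflects was not tested. In whole segments, more cells of a type cannot be told apart from more RNA per cell.

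After transection, a zebrafish cord is invaded by macrophages and other leukocytes, ependymal glia bridge the lesion and neurons are replaced, so that swimming returns over several weeks. Cytokines and chemokines recruit and steer leukocytes, and MHC class II proteins on antigen-presenting cells display peptides to T cells. Secreted matrix proteins and growth factors change the tissue that axons grow through. The members include genes of each of these groups.

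The libraries held 4359571 to 26940600 fragments on genes, with a median of 19801039. Markers of the cord were present throughout: GFAP, the glial filament gene, lay between 432 and 2379 FPKM, SOX2, a neural stem cell factor, between 33.8 and 80.2 FPKM, ELAVL3, a pan-neuronal gene, between 63.6 and 139 FPKM, and mbpa, a myelin gene, between 7502 and 110859 FPKM. The motor neuron gene MNX1 was listed at 0 in every library, and the glycine transporter gene SLC6A5 reached at most 0.0795 FPKM, so neither neuron type could be checked by these genes. The caudal 2 wpi library numbered 4 stood apart from the other 4 of its group, as described below, and results that rest on it are given without it as well. In what follows the values of a group are listed in the order of their replicate numbers, 1 to 5. Symbols in capitals are those of the reference table.

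At week 2 the members lay a median of 1.53 log2 units above control, against 0.80, 0.82 and 0.66 at weeks 1, 4 and 6. Week 2 differences ranged from 0.60 to 5.19, and 117 members reached at least 1 and 51 at least 2. The peak was a step above neighbouring weeks rather than a narrow spike. The excess of week 2 over the next highest week had a median of 0.46 and ranged from 0.33 to 1.75. The next highest week was week 1 for 77 members, week 4 for 45 and week 6 for 28. At the limit of the rule, the last member, si:dkeyp-2e4.5, and the first gene outside, NRROS, both had an excess of 0.33. Of all genes that averaged at least 1 FPKM, the median difference from control stayed between -0.04 and 0.04 in both regions at every week. The caudal medians of the members at weeks 1, 2, 4 and 6 were 0.87, 1.61, 0.69 and 0.52, and the rostral medians 0.61, 1.61, 0.92 and 0.76. The equal medians at week 2 rested on caudal 2 wpi replicate 4. Without it the caudal median was 1.26, and 114 members had a larger rostral than caudal difference, against 85 with it. The members were chosen with this library included, and 55 no longer met the rule without it, so nothing is read from this shift.

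**Figure D1:**
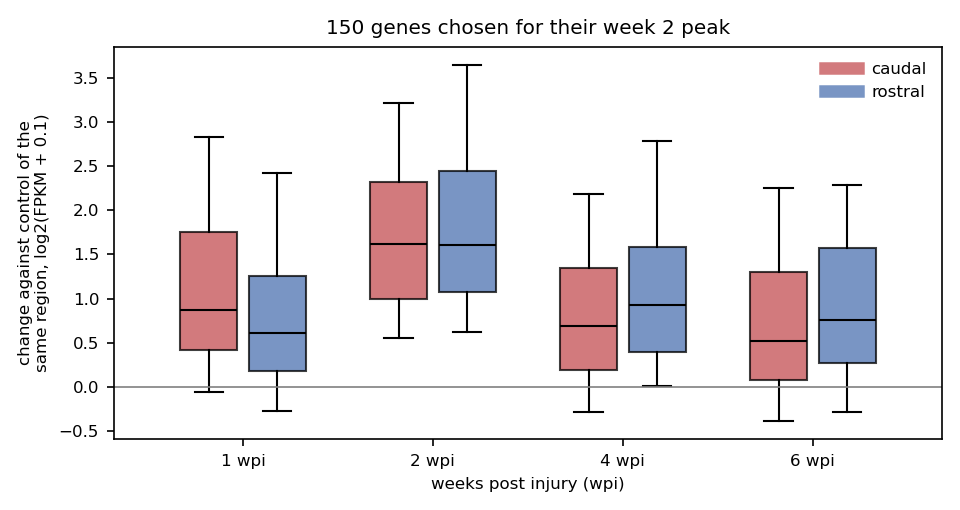
Difference from uninjured control, in log2(FPKM + 0.1), of the 150 members by week, for caudal and rostral segments. Boxes give the quartiles, the line the median and the whiskers the 5th to 95th percentile over members. The week 2 boxes are highest because the rule chose the members that way, and both week 2 medians are 1.61.

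Most members were scarce transcripts, as were most genes eligible for the rule. The mean FPKM of the members over the 49 libraries had a median of 3.49, against 4.71 for all eligible genes. Of the members, 113 lay between 1 and 10 FPKM, 34 between 10 and 100 and 3 at or above 100. The members were also short, with a median gene length of 1180.5 bases, against 2248 bases for all eligible genes. A symbol was available for 143 members, and 45 of them bear only a clone-based or zgc symbol, which is 30% of the members and 9.41% of eligible genes. Chromosome 22 held most, 17 members of its 499 eligible genes (3.41%), and 40 members had another member within 500 kb.

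Separation from the controls was clear for some members and absent for others. All 10 libraries at 2 wpi lay above every control library of their own region for 43 members, where 5.28% of eligible genes did so. By region, this held for 56 members in caudal segments and 64 in rostral segments, where 6.98% and 10.5% of eligible genes did so. In limma's moderated test with Benjamini-Hochberg adjustment over all genes, 63 members passed the adjusted p threshold of 0.05 and were higher in caudal segments at 2 wpi than in caudal controls, where 4.47% of 28392 genes tested were called higher. In rostral segments 85 members were called higher, where 9.00% of 28063 genes were. Without caudal 2 wpi replicate 4 the caudal count was 45, where 2.58% of genes were called higher. With the replicate number as a block, 60 caudal and 98 rostral members were called higher, where 4.06% and 11.1% of genes were. Since the rule used these contrasts, nothing is read from the counts.

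The steps between 2 wpi and its neighbours in time were small against the spread of the libraries. No member was called by limma between 2 and 1 wpi or between 2 and 4 wpi, in either region. At an unadjusted p below 0.05 by limma stood 24 caudal and 60 rostral members against 1 wpi. Of all genes, 2232 of 27880 in caudal and 2202 of 27765 in rostral segments did so. Against 4 wpi the counts were 49 caudal and 44 rostral members, and 2371 of 28026 and 2579 of 28052 genes. Against 4 wpi in both regions, and against 1 wpi in caudal segments, libraries of the same number deviated together. With the number as a block, 78 caudal and 75 rostral members had an unadjusted p below 0.05 against 4 wpi, where 3791 of 28026 and 4515 of 28052 genes did. Against 1 wpi 33 caudal members did, where 4131 of 27880 genes did, and again 0 members were called. Calls were as rare among all genes, namely 0% in caudal and 0.00360% in rostral segments against 1 wpi, and 0.0392% and 0.00713% against 4 wpi. The count test on fragments recovered from the FPKM values, voom with limma, also called 0 members in these 4 comparisons. Without overlap, every 2 wpi library exceeded every 1 wpi library for 5 caudal and 12 rostral members, where 0.950% and 1.01% of eligible genes did so. Against 4 wpi these counts were 15 and 11, where 1.97% and 2.53% did so, and against 6 wpi 21 and 15, where 3.61% and 3.39% did so.

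Among the members with the largest excess, si:dkey-78l4.2, si:dkey-7i4.24 and TYRP1 were separate from control in every library. si:dkey-78l4.2, which has the largest excess of all members, lies on chromosome 22 at 19405517 to 19408101 (danRer11) and encodes a protein to which no role is given here. It had 6.35, 4.68, 10.8, 4.75 and 3.51 FPKM in caudal segments at 2 wpi, against 0.0695, 0, 0.458, 0.858 and 0.480 FPKM in caudal controls. Rostral segments at 2 wpi had 10.9, 4.13, 16.9, 4.46 and 8.05 FPKM, against 0, 0.0715, 0, 0.296 and 0.131 FPKM in rostral controls. The groups did not overlap, and its differences from control at weeks 1, 2, 4 and 6 were 3.01, 4.76, 2.71 and 2.32. Its neighbour si:dkey-78l4.1, at 19365220 to 19367446, overlapped its controls in rostral segments, with 5.75 to 32.3 FPKM at 2 wpi against 0.0602 to 6.18 FPKM in controls. si:dkey-7i4.24 had the largest week 2 difference of all members, 5.19, with 10.99, 37.7, 27.2, 22.2 and 12.7 FPKM in caudal segments at 2 wpi against 0.0702 to 0.372 FPKM in caudal controls.

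TYRP1 encodes a tyrosinase-related protein of melanin synthesis, best known from pigment cells. It had 3.12, 15.4, 2.82, 5.78 and 3.12 FPKM in caudal segments at 2 wpi, against 1.83, 0.112, 0.442, 0.0268 and 0.421 FPKM in caudal controls. In rostral segments it had 8.57, 3.85, 2.29, 4.03 and 5.91 FPKM at 2 wpi, against 0.821, 0.251, 0.354, 0.227 and 0.258 FPKM in controls. Every 2 wpi library lay above every control library, and the week 2 difference of 3.44 compared with 1.14, 2.08 and 1.61 at weeks 1, 4 and 6. This TYRP1 gene lies on chromosome 1. Another TYRP1 gene, on chromosome 7, averaged 1.48 FPKM, had a week 2 difference of 0.89 and is not a member. The pigment cell list, which holds no member, moved in part. Of its 10 genes tested in each region, 3 were called higher in caudal segments at 2 wpi (median over the 10 of 0.73), and 4 higher and 1 lower in rostral segments (median 0.68). Over its 5 genes that averaged at least 1 FPKM the median difference was -0.32, -0.23, -0.28 and -0.25 at weeks 1, 2, 4 and 6, and the list's summed level was 23.4 to 28.7 FPKM in caudal segments at 2 wpi against 17.3 to 53.7 FPKM in caudal controls.

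**Figure D2:**
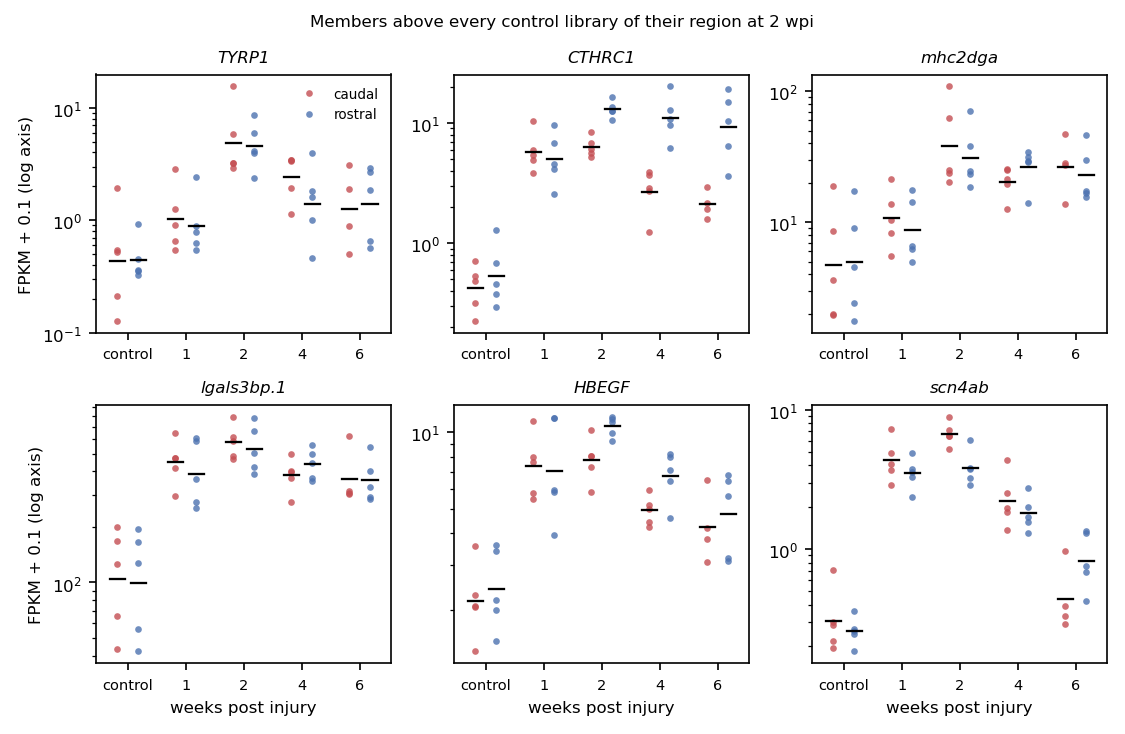
FPKM + 0.1 on a log axis of TYRP1, CTHRC1, mhc2dga, lgals3bp.1, HBEGF and scn4ab in every library by week, caudal and rostral. Each point is a library and the black line is the mean on the log scale. For all 6 genes the 2 wpi libraries sit above the control libraries of their region, most narrowly for mhc2dga in caudal segments, with 20.3 FPKM in the lowest 2 wpi library and 18.8 FPKM in the highest control.

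Members with roles in leukocytes fell into sets of macrophage-associated, antigen presentation, cytokine and interferon-induced genes. The role sets were drawn up after the members were known, and the genes named in them beyond those the naming rule gives were chosen after their values were seen. lgals3bp.1, which encodes a galectin-3-binding protein that macrophages secrete, was the most abundant member, with a mean of 384 FPKM over all libraries. In caudal segments at 2 wpi it had 483, 584, 613, 794 and 469.6 FPKM, against 43.5, 65.8, 127, 169 and 199.7 FPKM in caudal controls. Rostral segments gave 659.8, 501, 782, 387 and 424 FPKM at 2 wpi, against 42.2, 55.9, 128, 194 and 166 FPKM in controls. The groups were far apart, but the injured weeks were close to each other, with differences from control of 2.04, 2.44, 2.00 and 1.83. The 4 members grouped as macrophage-associated, lgals3bp.1, ms4a17a.6, rnaset2l and spp1, all had 2 wpi libraries above every control in both regions. Of all 150 members 43 did, and 5.28% of eligible genes, in a contrast that the rule used. The macrophage and microglia list, which holds no member, had median differences of 2.14, 1.91, 1.499 and 1.39 at weeks 1, 2, 4 and 6, so its median was highest at week 1. Of its 15 genes tested, 12 were called higher at 2 wpi than in controls in each region.

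spp1, which encodes osteopontin, a matrix phosphoprotein also made by activated macrophages, had 4.34, 12.4, 2.44, 19.1 and 5.77 FPKM in caudal segments at 2 wpi, against 0.438 to 1.26 FPKM in caudal controls. Its rostral levels at 2 wpi were 4.74, 10.3, 4.24, 3.11 and 2.74 FPKM, against 0.297 to 0.985 FPKM in controls. Its rostral mean was 6.66 FPKM at 1 wpi and 5.02 FPKM at 2 wpi, while on the log scale of the rule the rostral differences were 2.71 and 3.03, so the order of these weeks depends on the scale.

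Antigen presentation had 4 members, of which 3 are MHC class II genes that lie together on chromosome 8. mhc2dga, at 36283548 to 36287046, had 23.9, 25.1, 62.7, 109 and 20.3 FPKM in caudal segments at 2 wpi, against 1.87, 1.89, 8.44, 3.53 and 18.8 FPKM in caudal controls. In rostral segments it had 38.5, 18.6, 71.3, 24.6 and 23.2 FPKM at 2 wpi, against 2.32, 1.66, 9.01, 4.47 and 17.1 FPKM in controls. Control replicate 5 was high in both regions and came close to the lowest 2 wpi library. mhc2dhb, at 36321336 to 36327328, was likewise separate, with 39.6 to 101 FPKM in caudal segments at 2 wpi against 3.69 to 31.2 FPKM in caudal controls. mhc2dgb, whose interval of 36268747 to 36292840 contains that of mhc2dga, overlapped its controls, with 12.2 to 50.1 FPKM against 1.45 to 18.5 FPKM in caudal segments. Differences of these 3 genes at 1 wpi were 0.73 to 1.44, and at weeks 4 and 6 they stayed at 2.17 or more, so their profile was a late plateau with its top at week 2. Of the other mhc2d genes that averaged at least 1 FPKM, mhc2d4b, on chromosome 4, had 2.01, 1.95, 1.65 and 1.47 at weeks 1, 2, 4 and 6. In contrast, mhc2daa had 0.81 and mhc2dab 0.27 at week 2, below their own weeks 1, 4 and 6. These genes are close copies, so fragments may be shared or lost between them and the level of a single copy is uncertain.

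Among 7 members that encode chemokines, cytokines or their receptors, 3 were called higher than control in caudal and 4 in rostral segments. Of all 150 members 63 and 85 were, and of all genes 4.47% and 9.00%, in a contrast that the rule used. cxcl8b.1, which encodes a neutrophil attractant, had 3.94, 3.46, 2.98, 4.26 and 2.53 FPKM in caudal segments at 2 wpi, against 0.420, 0.0769, 0.997, 0.0740 and 0.290 FPKM in caudal controls. Rostral segments had 18.8, 3.28, 10.1, 5.55 and 8.18 FPKM at 2 wpi, against 0 to 0.976 FPKM in controls. Its caudal mean at 1 wpi, 5.09 FPKM, was above the 3.44 FPKM of 2 wpi, and its peak came from the rostral segments, with 4.56 FPKM at 1 wpi and 9.18 FPKM at 2 wpi. il13, a type 2 cytokine gene, had 1.35 to 5.05 FPKM in caudal segments at 2 wpi against 0.134 to 2.25 FPKM in controls, which overlap. XCR1, a chemokine receptor that marks a class of dendritic cells in mammals, had 1.76 to 4.00 FPKM in rostral segments at 2 wpi against 0.269 to 1.17 FPKM in controls. In caudal segments XCR1 overlapped its controls, and its highest 2 wpi library was caudal replicate 4, with 7.10 FPKM. CH25H makes 25-hydroxycholesterol, from which the ligand of the leukocyte receptor GPR183 is formed in mammals, and both genes are members. CH25H had 3.63 to 7.82 FPKM in caudal segments at 2 wpi, above the 1.27 to 2.96 FPKM of controls, whereas GPR183, with 12.2 to 25.2 FPKM against 3.52 to 19.3 FPKM, overlapped its controls.

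Of the 2 interferon-induced members, ifitm1, which encodes a membrane protein that restricts virus entry, was separate in both regions. It had 15.9, 9.22, 13.02, 86.2 and 14.01 FPKM in caudal segments at 2 wpi, against 1.63, 1.098, 4.63, 1.81 and 4.34 FPKM in controls. The fourth library was the only caudal one above 16 FPKM. Rostral levels were more even, with 33.8 to 52.3 FPKM at 2 wpi against 1.16 to 7.47 FPKM in controls. ifi27.4 had 12.2 to 44.6 FPKM in caudal segments at 2 wpi against 4.01 to 12.9 FPKM in controls, and thus overlapped them.

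Smaller sets also held members that were separate from control. Both genes of cell death were, in both regions, as were 43 of all 150 members and 5.28% of eligible genes. bik, which encodes a pro-apoptotic BH3 protein, had 2.52, 2.29, 2.21, 19.0 and 2.65 FPKM in caudal segments at 2 wpi against 0.586 to 1.32 FPKM in controls, and differences of 1.24, 2.03, 0.44 and 0.03 at weeks 1, 2, 4 and 6, a return to control by week 6. pmaip1, which encodes Noxa, a further pro-apoptotic protein, had 4.81 to 9.39 FPKM in rostral segments at 2 wpi against 0.691 to 3.43 FPKM in controls. HBEGF, a growth factor that binds the EGF receptor, had even levels, with 9.12 to 11.4 FPKM in rostral segments at 2 wpi against 1.40 to 3.51 FPKM in controls, and 5.71 to 10.1 FPKM in caudal segments against 1.27 to 3.46 FPKM. map3k7cl had 12.4 to 15.8 FPKM in caudal and 12.5 to 15.5 FPKM in rostral segments at 2 wpi, against 4.92 to 8.39 and 5.96 to 8.05 FPKM in their controls.

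Of the 12 members with the highest mean FPKM, CCK and cahz had small differences and overlapped their controls. CCK, which encodes a neuropeptide, had 148, 88.4, 66.0, 154 and 124 FPKM in caudal segments at 2 wpi, against 42.3, 79.9, 48.2, 70.9 and 126 FPKM in caudal controls. Rostral segments gave 122, 80.5, 70.7, 162 and 144 FPKM at 2 wpi, against 40.2, 73.0, 56.3, 87.3 and 132 FPKM in controls. The week 2 difference of 0.66 stood against -0.03, -0.21 and 0.00 at weeks 1, 4 and 6, and the library numbered 5 was the highest control in both regions. cahz, which encodes a carbonic anhydrase of erythrocytes, had 97.0, 92.1, 251, 279.9 and 293 FPKM in caudal segments at 2 wpi, against 122, 84.2, 113, 196 and 156 FPKM in caudal controls. Of the 9 genes of the erythrocyte list tested in each region, which include cahz, 0 were called. Over the 6 list genes that averaged at least 1 FPKM, cahz among them, the median differences were 0.05, 0.21, -0.49 and -0.67 at weeks 1, 2, 4 and 6.

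Other members of high level have no assigned role. si:dkey-27i16.2 (mean 143 FPKM) had 123 to 335 FPKM in caudal segments at 2 wpi against 26.3 to 155 FPKM in controls, and si:ch211-265g21.1 (93.0 FPKM) 90.5 to 265 FPKM against 12.1 to 50.3 FPKM, without overlap. si:dkey-119g10.4, a short gene of 587 bases, had 21.1 to 129 FPKM in caudal segments at 2 wpi against 1.62 to 10.4 FPKM in controls. ENSDARG00000116586, without a symbol, had 14.3, 21.2, 154, 38.3 and 24.9 FPKM in caudal and 22.6, 18.4, 255, 53.7 and 52.0 FPKM in rostral segments at 2 wpi, against 1.70 to 10.4 and 1.74 to 9.39 FPKM in their controls, and its replicate 3 was highest in both regions. bckdhbl, a homologue of a branched-chain ketoacid dehydrogenase subunit, had 58.9 to 104 FPKM in caudal segments at 2 wpi against 22.3 to 60.9 FPKM in controls. si:dkey-42i9.4, with 35.4 to 102 FPKM against 22.2 to 60.0 FPKM, and si:dkeyp-116a7.2, with 20.0 to 80.2 FPKM against 4.12 to 31.0 FPKM, overlapped their caudal controls more.

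The difference between caudal and rostral segments at 2 wpi was not used by the rule, although a gene could pass the rule through 1 region. Few differences were called among the members. nppcl2 and CTHRC1 were lower in caudal than in rostral segments, and no member was called higher. With limma, 2 of 150 members were called lower, where 0.0970% of 27834 genes were called lower, 0.0251% higher and 0.122% in either direction. An unadjusted p below 0.05 was found for 19 members and for 1994 of the 27834 genes. Rostral and caudal libraries with the same replicate number deviated together from their group means, and with that number as a block 8 members were called, 7 lower and 1 higher, where 1.55% and 0.190% of genes were (1.74% in either direction). In uninjured cords, 0 of 149 members tested were called between the regions, and 0.0213% of genes were called. An unadjusted p below 0.05 was found for 4 members and for 332 of 28222 genes. With the block the control count was also 0, where 0.0602% of genes were called, and voom gave 0 as well.

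nppcl2, on chromosome 23 at 44633858 to 44642913, encodes a peptide of the C-type natriuretic family, small hormones that act through cyclic GMP. At 2 wpi it had 32.1, 21.4, 7.99, 10.4 and 23.3 FPKM in caudal segments, against 123, 78.9, 64.5, 113 and 122 FPKM in rostral segments, and the regions did not overlap. The caudal minus rostral difference was -2.52 on the log2 scale (SE 0.36, adjusted p 0.0241 by limma over all genes, adjusted p 0.00693 with the block) and was negative in 5 of 5 pairs. The controls were alike, at 5.56 ± 3.08 FPKM in caudal and 4.26 ± 1.66 FPKM in rostral segments (SD, n = 5 each). At 1, 2, 4 and 6 wpi the caudal means were 17.5, 19.0, 12.5 and 11.3 FPKM and the rostral means 63.4, 100.2, 54.8 and 110.6 FPKM. The regions did not overlap at any of these weeks, and the rostral mean at 6 wpi included a library at 275 FPKM. The regional difference of the week 2 difference from control was -2.79, with adjusted p 0.247 by limma and 0.00243 with the block (SE 0.29). Of all genes, 0% and 0.360% were called in this comparison. Without the block 5 members had an unadjusted p below 0.05, where 647 of 28363 genes did.

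CTHRC1, on chromosome 19 at 12915498 to 12927089, encodes a secreted collagen triple helix repeat protein found in remodelling matrix. In caudal segments at 2 wpi it had 5.93, 6.64, 5.54, 8.35 and 5.08 FPKM, against 16.4, 12.5, 13.3, 10.4 and 12.3 FPKM in rostral segments. The difference was -1.04 (SE 0.16, adjusted p 0.0457 by limma, adjusted p 0.0343 with the block), again negative in 5 of 5 pairs. At 1 wpi the regions overlapped, with means of 6.00 FPKM in caudal and 5.44 FPKM in rostral segments. At 2, 4 and 6 wpi they did not overlap: the caudal means were 6.31, 2.79 and 2.06 FPKM and the rostral means 13.01, 11.8 and 10.8 FPKM. Controls averaged 0.357 FPKM in caudal and 0.521 FPKM in rostral segments.

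These calls rested on all the libraries together. The adjusted p of nppcl2 exceeded 0.05, at 0.0544 to 0.0929, without rostral 2 wpi replicate 1, 4 or 5 or without caudal 2 wpi replicate 2, 4 or 5. Its range over all the alternatives was 0.00693 to 0.871. That of CTHRC1 exceeded 0.05, at 0.0604 to 0.148, without any 2 wpi library except caudal replicate 4, with a range of 0.0270 to 0.301 over all alternatives. Without caudal 2 wpi replicate 4, CTHRC1 (adjusted p 0.0270) and ifitm1 were called lower in caudal segments, where 0.0688% of genes were. For ifitm1 the difference was then -1.61 (SE 0.18, adjusted p 0.0118 by limma), and -1.06 (SE 0.49, adjusted p 0.704) with that library.

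tmem100b, whose mammalian counterpart is a transmembrane protein of endothelium downstream of BMP signalling, was close to the threshold without the block. It had 1.31, 0.680, 1.24, 1.71 and 1.31 FPKM in caudal segments at 2 wpi, against 5.03, 2.51, 3.05, 5.14 and 4.34 FPKM in rostral segments. The difference was -1.61 (SE 0.26, adjusted p 0.0508 by limma, 0.00567 with the block and up to 0.783 over the alternatives). Its regions did not overlap at 2, 4 or 6 wpi. The remaining members called only with the block were si:ch73-335l21.4 (-0.91, adjusted p 0.0224), mfap4.6 (-2.25, 0.0296), COX5B of chromosome 13 (-0.58, 0.0437) and CRABP2 (-0.94, 0.0471).

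The 1 member called higher in caudal segments, with the block, was scn4ab, which encodes the voltage-gated sodium channel subunit of skeletal muscle. It had 5.09, 8.82, 6.32, 7.05 and 6.32 FPKM in caudal segments at 2 wpi, against 3.67, 5.92, 3.69, 3.14 and 2.79 FPKM in rostral segments. The difference was 0.82, with adjusted p 0.0387 with the block and 0.312 by limma without it, and was positive in 5 of 5 pairs although the ranges overlapped. Caudal controls averaged 0.242 FPKM and rostral controls 0.164 FPKM, and at 6 wpi the means were 0.397 and 0.803 FPKM. The summed skeletal muscle list, which holds no member, was 51.5 to 179 FPKM in caudal segments at 2 wpi against 37.2 to 828.7 FPKM in caudal controls. Its relation to scn4ab was not tested. In rostral segments the list summed to 69.7 to 99.7 FPKM at 2 wpi against 35.7 to 170 FPKM in controls.

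**Figure D3:**
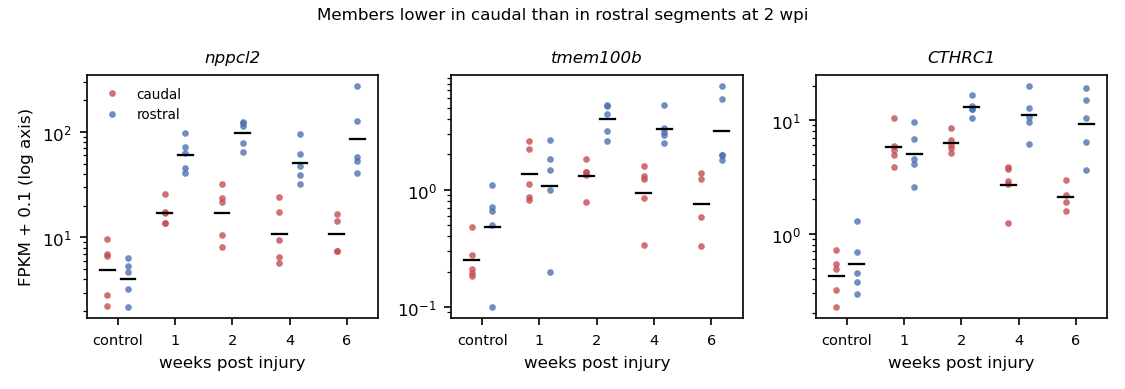
FPKM + 0.1 on a log axis of nppcl2, tmem100b and CTHRC1 in caudal and rostral libraries by week, each point a library and the black line the mean on the log scale. nppcl2 is lower in caudal than in rostral libraries at 1, 2, 4 and 6 wpi without overlap, and tmem100b and CTHRC1 at 2, 4 and 6 wpi.

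The retinoic acid and glial members and MMP14 were each separate from their controls in at most 1 region. ALDH1A2, the enzyme that makes retinoic acid, had 3.05, 1.91, 1.497, 2.48 and 1.69 FPKM in caudal segments at 2 wpi, against 4.57, 3.55, 4.81, 3.41 and 3.42 FPKM in rostral segments, and was not called between them. CRABP2, which carries retinoic acid in the cytoplasm, had 0.585 to 1.80 FPKM in caudal and 1.04 to 4.19 FPKM in rostral segments at 2 wpi. MMP14, a membrane-bound metalloproteinase gene, had 2.301 to 5.94 FPKM in caudal segments at 2 wpi against 1.58 to 2.17 FPKM in controls, while its rostral range of 1.87 to 3.86 FPKM overlapped the controls at 1.32 to 2.02 FPKM. CLDN11, a claudin of myelin, had 6.83 to 14.9 FPKM in caudal segments at 2 wpi against 1.45 to 8.14 FPKM in controls. The myelin list, which holds no member, went the other way. Its median differences were -0.75, -0.83, -0.54 and -0.47 at weeks 1, 2, 4 and 6. Of its 13 genes tested in each region, 2 in caudal and 6 in rostral segments were called lower at 2 wpi, and 0 higher. SOX8, a glial transcription factor gene, had 4.79 to 6.69 FPKM in caudal segments at 2 wpi against 1.83 to 2.87 FPKM in controls, with overlap in rostral segments only.

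The respiratory chain was represented by scarce copies. COX5B of chromosome 13, a gene for a cytochrome c oxidase subunit, averaged 9.70 FPKM and had a week 2 difference of 0.96, while the COX5B gene of chromosome 10 averaged 722 FPKM with -0.09. COX6A1 of chromosome 3 averaged 3.04 FPKM with 1.63, while cox6a1 of chromosome 8 averaged 477 FPKM with 0.01. Of 29 eligible genes of the cox family 2 were members, and assignment of fragments between such copies is uncertain.

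The excesses next to that of si:dkey-78l4.2 belonged to spink2.10 (1.75) and spink2.9 (1.72), followed by eslec (1.65) and spink2.5 (1.56). The spink2 genes form a cluster on chromosome 14 and encode secreted Kazal-type serine protease inhibitors. They were high in a few libraries rather than in the group. spink2.10 (15331486 to 15332339), spink2.4 (15495088 to 15495844), spink2.9 (15543331 to 15544198) and spink2.5 (15597049 to 15597806) are members. spink2.5 had 2.53, 0.588, 0.0852, 3.28 and 13.1 FPKM in caudal segments at 2 wpi, against 0.292, 0.134, 0.386, 0 and 0 FPKM in caudal controls. In rostral segments it had 11.6, 0.544, 1.15, 18.3 and 70.9 FPKM at 2 wpi, against 0, 0, 1.27, 0.156 and 2.21 FPKM in controls. Replicates 1, 4 and 5 were high and replicates 2 and 3 low in both regions, and rostral replicate 5 at 6 wpi reached 30.4 FPKM. spink2.10 was also highest in replicate 5 of both regions, but its caudal replicate 1 lay below replicate 2, with 0.440, 1.07, 0.277, 1.26 and 6.53 FPKM in caudal and 4.82, 0.441, 0.511, 9.26 and 30.2 FPKM in rostral segments at 2 wpi. In spink2.9 rostral replicate 5 held 22.0 FPKM and in spink2.4 52.1 FPKM.

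Of 5 eligible spink2 genes, 4 are members, and the fifth, spink2.1, had -0.10 at week 2. The other 6 spink2 genes averaged below 1 FPKM and were also highest at week 2, with differences of 1.22 to 2.72. Some of them have overlapping intervals, and the copies are similar, so fragments could be split between them.

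The library pattern of spink2 was shared by other members elsewhere in the genome. Likeness was taken as the correlation of log2 deviations from group means over 49 libraries, a description in which the libraries are shared points. By it spink2.5 was most like spink2.4 (0.82) and then cst14b.2 (0.80), a cystatin gene on chromosome 5, and eslec on chromosome 1 was most like mfap4.6 (0.87). The median pairwise correlation over all members was 0.18, against 0.01 over eligible genes. Members could pass the rule through the same few high libraries at 2 wpi, so the choice itself can raise this value. By how much was not tested. eslec had 1.15, 1.80, 0.588, 4.85 and 31.7 FPKM in caudal and 16.99, 1.08, 2.12, 24.7 and 121 FPKM in rostral segments at 2 wpi, against 0 to 9.02 and 0.559 to 1.98 FPKM in their controls. cst14b.2 had 0.132, 0.572, 0.104, 3.31 and 14.6 FPKM in caudal and 2.82, 0.0661, 0.536, 13.3 and 68.9 FPKM in rostral segments at 2 wpi. TIMP4 names several metalloproteinase inhibitor genes on chromosome 11, of which the one at 705727 to 711032 is a member, with a mean of 3.07 FPKM. The TIMP4 gene at 714386 to 718748 averaged 63.8 FPKM, with differences of 0.04, 1.73, 2.17 and 2.63 at weeks 1, 2, 4 and 6. That at 691734 to 701305 had 0.46 at week 2. The TIMP4 member had 0.473, 1.41, 1.41, 9.63 and 19.3 FPKM in caudal and 2.59, 1.19, 2.01, 9.43 and 51.2 FPKM in rostral segments at 2 wpi.

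The members eslec, cst14b.2, TIMP4 and spink2.5 were all highest in replicate 5 and next in replicate 4 in each region. Of the 10 members grouped as protease inhibitors and secreted defence proteins, 0 had 2 wpi libraries above every control in both regions, and 2 in caudal and 3 in rostral segments were called higher than control. Of all 150 members 43 were above every control in both regions, and 63 caudal and 85 rostral members were called higher. Among eligible genes 5.28% were above every control in both regions, and of all genes tested 4.47% and 9.00% were called higher. Without caudal 2 wpi replicate 4 the caudal count was 0 of the 10, where 45 members and 2.58% of genes were called. The rule used this contrast, so nothing is read from these counts. What the pools of the same number share across groups was not stated.

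Some members were present or nearly absent in the same numbered libraries of both regions. mhc1uba, a classical MHC class I gene on chromosome 19, had 24.2, 0, 62.8, 0 and 0 FPKM in caudal segments at 2 wpi, against 0.493, 0, 0, 36.5 and 0.0542 FPKM in caudal controls. In rostral segments it had 33.4, 0, 73.8, 0 and 0.0173 FPKM at 2 wpi, against 0.338, 0.0483, 0, 38.5 and 0 FPKM in controls. The same numbers were high in both regions. At 1 wpi every library was at or below 0.121 FPKM, and at 4 wpi only replicate 1 was high, with 90.1 FPKM in caudal and 113 FPKM in rostral segments. It no longer met the rule without any of 10 of the 49 libraries, taken singly. Over the libraries, its rostral and caudal deviations correlated at 0.99, as did those of slc3a2a.

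slc3a2a encodes the heavy chain of amino acid transporters. It had 15.8, 19.3, 2.38, 19.5 and 24.4 FPKM in caudal segments at 2 wpi, against 0.338, 10.9, 14.2, 23.6 and 17.9 FPKM in caudal controls. Rostral segments gave 15.5, 25.6, 3.34, 21.3 and 19.5 FPKM at 2 wpi, against 0.140, 6.48, 16.2, 26.7 and 20.7 FPKM in controls. At every week but week 2 at least 1 number was below 1 FPKM in both regions, and the other libraries overlapped those of 2 wpi. si:ch73-119p20.1 behaved likewise (0.97), with 10.9, 26.4, 17.9, 25.5 and 48.2 FPKM in caudal segments at 2 wpi against 4.24, 43.0, 9.15, 0.212 and 19.6 FPKM in controls. In all, 13 of 150 members correlated at 0.9 or more between regions, where 4.46% of eligible genes did, and the medians were 0.68 and 0.66. In such genes the week means depend on how many of the libraries carried the transcript.

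A further set of members was high in caudal 2 wpi replicate 4. By the log2 difference from the control mean of its own region, that library was the highest of the 10 at 2 wpi for 64 members, or 42.7%. By the same measure it was the highest for 15.04% of eligible genes. Some of the 64 were not highest there by FPKM, such as CCK with 154 FPKM against 162 FPKM in another 2 wpi library. In FPKM, caudal replicate 4 exceeded the next 2 wpi library at least 2 times for 17 of the 64 and at least 10 times for 9. icn2, which encodes an S100-type calcium-binding protein of fish skin, had 254 FPKM there, against 0, 0, 0.241 and 0 FPKM in the other caudal libraries at 2 wpi, and 0 to 1.78 FPKM in rostral libraries. zgc:111983 had 162 FPKM there against 0 to 0.121 FPKM in the other caudal libraries, and ENSDARG00000025783 had 476 FPKM against 0 to 0.196 FPKM. These genes were at or near 0 in every other library of the group.

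cldnb, an epithelial claudin, and AGR2, a protein disulfide isomerase of secretory epithelium, showed it in part. cldnb had 1.41, 0.762, 1.104, 69.5 and 1.75 FPKM in caudal and 3.78, 4.08, 3.15, 2.19 and 5.31 FPKM in rostral segments at 2 wpi, against 0.0715 to 0.687 and 0.0557 to 0.519 FPKM in their controls, and so was separate in every library. AGR2 had 0.451, 0.236, 0.349, 28.9 and 1.94 FPKM in caudal segments at 2 wpi against 0.156 to 0.378 FPKM in controls. By the difference from control, all 6 members grouped as epithelial were highest in that library.

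The skin and keratinocyte list was high there too. Without its 3 members the list summed to 3048 FPKM in that library, against 456 to 800.3 FPKM in the other caudal and 647 to 1029 FPKM in the rostral libraries at 2 wpi, and 133 to 378 and 119 to 375 FPKM in their controls. Of 26 such genes above 0, 22 were highest there among the 2 wpi libraries, and their part in the members' result was not tested. In the other libraries at 2 wpi the sum was carried by icn and pfn1. icn had 164 to 375 FPKM in the other caudal libraries at 2 wpi against 55.3 to 92.5 FPKM in caudal controls, and pfn1, the profilin gene, 257 to 383 FPKM against 31.2 to 271 FPKM. The remaining 24 genes summed to 979 FPKM in caudal replicate 4, and to 35.1 to 62.5 FPKM in the other caudal libraries at 2 wpi against 28.8 to 59.5 FPKM in caudal controls. Of the 26 genes, 18 did not exceed the highest caudal control in any of those other libraries. Over the 13 list genes that averaged at least 1 FPKM, the 3 members included, the median differences were 0.52, 1.41, 0.88 and 0.54 at weeks 1, 2, 4 and 6. Caudal replicate 4 counts in those averages. krt17, for example, averaged 1.97 FPKM, with 77.6 FPKM there and at most 1.56 FPKM in the other 2 wpi libraries. Of the genes tested, members included, 3 of 22 were called higher in caudal and 3 of 20 in rostral segments at 2 wpi. The macrophage list was also highest in that library, at 27966 FPKM against 8679 to 14916 FPKM in the others at 2 wpi.

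Without caudal 2 wpi replicate 4, 55 members no longer met the rule and 95 did, and 109 genes met it in all. The members' mean level, taken as the average over members of log2 values centred on each gene, was 1.87 in that library and 0.39 to 0.64 in the other caudal libraries at 2 wpi. Rostral libraries at 2 wpi lay between 0.38 and 1.31, caudal controls between -1.29 and -0.42 and rostral controls between -1.27 and -0.27. This score averages over members and rests on values the rule used, so its separation from control is a description. The rule held for 79 members without any 1 of the 10 libraries at 2 wpi, and for 58 without any 1 of the 49. When a library was left out, only the differences from control were recomputed. The filter of at least 1 FPKM still used the mean over all 49 libraries, so these counts of members may be too high. ENSDARG00000025783, below 1 FPKM in 47 libraries, is among both the 79 and the 58.

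**Figure D4:**
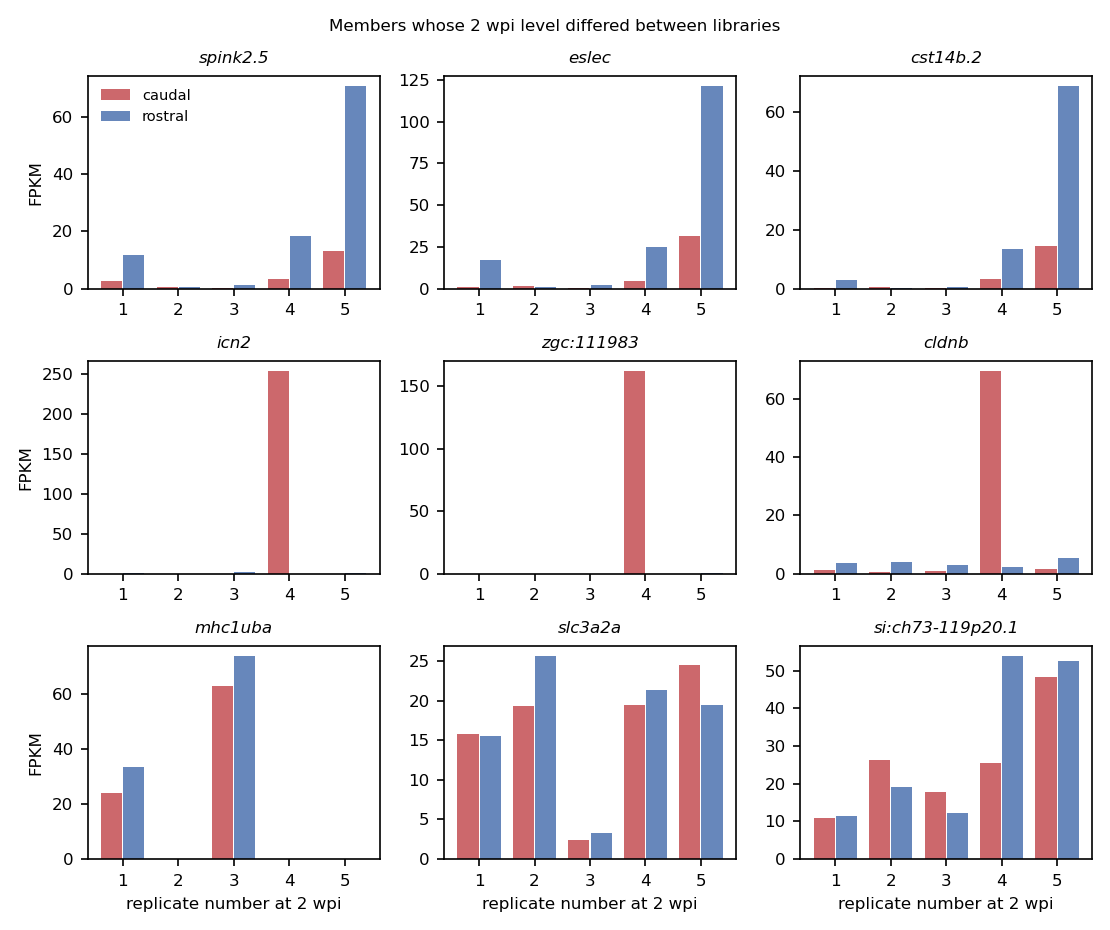
FPKM of 9 members in each library at 2 wpi by replicate number, caudal left and rostral right in each panel, with bars starting at 0. spink2.5, eslec and cst14b.2 are highest in replicate 5 of both regions, icn2, zgc:111983 and cldnb in caudal replicate 4, and mhc1uba is above 1 FPKM only in replicates 1 and 3 of both regions.

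Few members belong to the 41 cell type and pathway lists, which were drawn up for the series. Of 1042 symbols on them 747 were matched, and 6 members are on any list: mhc1uba, cahz, AGR2, zgc:111983, icn2 and spp1. The median difference, taken over list genes that averaged at least 1 FPKM with members included, was highest at week 2 for 13 lists. Among these the antigen presentation and complement list had 1.48, 1.66, 1.44 and 1.34 at weeks 1, 2, 4 and 6, with 6 of 13 genes called higher in caudal and 7 of 13 in rostral segments at 2 wpi. The neutrophil list had 1.23, 1.36, 1.35 and 1.04, with 4 of 10 and 9 of 11 called. Over single genes these medians were close between neighbouring weeks. The antigen presentation and complement list was also summed without its member. Its summed level rose from 1 to 2 wpi, and at 4 and 6 wpi it overlapped that of 2 wpi. It was 1614 to 3236 FPKM in rostral segments at 2 wpi against 499 to 1577 FPKM at 1 wpi, without overlap, and 1525 to 3779 FPKM in caudal segments at 2 wpi against 534 to 1616 FPKM at 1 wpi, which overlap. At 4 wpi it was 1516 to 2947 FPKM in rostral and 1254 to 2406 FPKM in caudal segments. At 6 wpi it was 1394 to 3185 FPKM in rostral and 1209 to 3253 FPKM in caudal segments. The rostral median was 1987 FPKM at 2 wpi and 2245 FPKM at 4 wpi, so the rostral sum did not peak at week 2. Controls had 264 to 2247 FPKM in rostral and 287 to 2338 FPKM in caudal segments.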

How the data were processed

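RNA was measured in 49 libraries, and the authors deposited 1 table of FPKM values, made per the labels and their methods with HISAT2 2.0.5 on danRer11 and featureCounts 1.5.0-p3. Whether strand was used in counting is not given in the sources used here. FPKM is scaled to the fragments on genes, so a few abundant transcripts in a library lower all others. No per-sample column was left unused (0). In each library 100% of the deposited FPKM values gave whole fragments, and these set the depth of 4359571 to 26940600 fragments.

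Groups were taken from the labels. Levels were compared on log2(FPKM + 0.1) with limma 3.58.1 in R 4.3.3 (trended empirical Bayes, two-sided, Benjamini-Hochberg adjustment at 0.05 over all genes with a mean of at least 0.1 FPKM in the libraries compared); each comparison was fitted on its own groups. Other values were computed with Python 3.11.15, pandas 2.3.3 and numpy 2.4.6, and drawn with matplotlib 3.10.9. Each fit was repeated with a pseudocount of 1 or 0.01, without the filter or with it at 1 FPKM, and with quantile normalization, voom on recovered fragments, the replicate number as a block, replicates 1 to 3 only and each library left out; the rule also with medians and with each region alone. On simulated data for rostral 2 wpi against control, over 28387 genes, 52% of 100 genes changed 2-fold and 100% of 100 genes changed 4-fold were recovered, with 7 other genes called. The changed genes were drawn only from those with many fragments, and the same spread was set for every gene. These rates therefore need not hold for scarce members or for those uneven between libraries.

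Replicate numbers come from the labels. Within a week, a rostral and a caudal library that share a number deviated together from their group means, with correlations of 0.29 to 0.83 (mean 0.62, 24 pairs), so the number was used as a block between regions. Across weeks 26 of 30 correlations were over 0.1. Every pair was over it between 2 and 4 wpi in rostral (0.31 to 0.51) and caudal segments (0.28 to 0.41) and between 2 and 1 wpi in caudal segments (0.25 to 0.53), so the numbers were taken to pair the samples there, and not in the other 3 comparisons, where the lowest was 0.01 to 0.06.

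The members and gene lists were chosen with earlier results of these data known. Genes are named when they were among the 12 members with the largest excess or the 12 with the highest mean FPKM, on a gene list, called between regions, or beside the limit of the rule. The other genes named, among them tmem100b, scn4ab, HBEGF, cldnb, slc3a2a and the members of the role sets, were chosen after their values were seen. Of 31901 Ensembl identifiers 29178 had a symbol. Gene sequences were not used here.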

Additional observations from a re-analysis of the deposited data

Results flagged for a closer look

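Several members had a library far from the others of its group at 2 wpi. In all, 76 groups were examined and 7 were flagged. The members were chosen by their 2 wpi levels and several flags fall on 1 library, so no chance rate is set against this count. In caudal segments replicate 4 held 476 FPKM of ENSDARG00000025783, 254 FPKM of icn2 and 162 FPKM of zgc:111983, while no other caudal library at 2 wpi exceeded 0.241 FPKM of any of them. The members' mean centred log2 level was 1.87 in the same library, against 0.39 to 0.64 in the other 4. In rostral segments replicate 3 had 54.1 FPKM of bckdhbl, against 98.4 to 124 FPKM in the others, and replicate 2 had 40.7 FPKM of si:dkey-42i9.4, against 80.5 to 88.8 FPKM. The skin and keratinocyte list without members summed to 1029 FPKM in rostral replicate 1, against 647 to 729 FPKM in the other rostral libraries at 2 wpi.

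The week 2 difference of nppcl2 from control was smaller in caudal than in rostral segments, by -2.79 on the log2 scale with the replicate number as a block (adjusted p 0.00243 by limma) and with adjusted p 0.247 without it.

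Of 2419 loci without an Ensembl identifier that averaged at least 1 FPKM, which the rule leaves out, 43 met its other thresholds (1.78%, against 1.25% of Ensembl genes). Of these 43 loci, 9 lay above every control library of their region in both regions. So did 5.28% of eligible Ensembl genes and 43 of the 150 members, and the share over all 2419 loci was not computed. The thresholds used the same contrast, so nothing is read from the 9. The largest week 2 difference among the 43 loci was 4.43 and the largest excess 2.01.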

How the results depend on the processing

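The number of genes meeting the rule, 173, was 364 with rostral segments alone and 437 with replicates 1 to 3 only, and 109 to 223 with 1 library left out, lowest without caudal 2 wpi replicate 4. It was 117 to 193 under the other pseudocounts, quantile normalization, group medians and caudal segments alone. Of the 150 members, 108 met the rule with a pseudocount of 1 and with replicates 1 to 3 only, 102 with rostral and 90 with caudal segments alone, and 88 with medians. With replicates 4 and 5 only, an alternative chosen after seeing the data, 168 genes met it, 56 of them members. In all these alternatives the filter of at least 1 FPKM used the mean over all 49 libraries, including those left out.

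The caudal count of 63 members called against control was 31 without the filter and 31 with replicates 1 to 3 only, and 44 to 72 with 1 library left out, and the rostral count 63 to 95. Between 2 and 1 wpi and, in rostral segments, 4 wpi it stayed at 0 to 0, and in caudal segments against 4 wpi at 0 to 1, with 1 call without caudal 4 wpi replicate 3. The caudal against rostral count at 2 wpi, 2, was 0 without the filter, 0 with replicates 1 to 3 only and 0 to 2 with 1 library left out: 0 without rostral replicate 1, 4 or 5 or caudal replicate 2 or 5, and 1 without rostral replicate 3 or caudal replicate 1 or 3. The causes were not tested.

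With the replicate block, 8 members were called between regions at 2 wpi and 1 in the regional difference of the week 2 difference (0 without it). Against control and, in rostral segments, 1 wpi, the numbers did not pair the samples by the criterion used, and the block gave 60 caudal and 98 rostral calls against control and 0 against 1 wpi. Where they did, against 4 wpi and in caudal segments 1 wpi, it gave 0 calls, as without it.

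For 76 single-gene results, 1436 alternative values were computed. The call was unchanged in 1276, lost with the direction kept in 127 and gained with the direction kept in 33. In 0 did the direction turn where the main or the alternative value was called. Turns of direction between values that were both uncalled were not counted apart and lie among the 1276. In 41 of the 76 results no alternative changed the call. The depth of 4359571 fragments in the shallowest library limits genes near 1 FPKM most.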
